A study of Homo sapiens with 24 samples.

Results

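The heat shock proteins of the cytosol and of mitochondria were followed in K562 cells after CRISPR interference against DDX3X, through 10 named genes: HSF1, HSPA1A, HSPA1B, HSPA8, HSP90AA1, HSP90AB1, DNAJB1, HSPH1, HSPD1 and HSPE1. They were taken by symbol from the 57992 genes of both count tables, all 10 were found, and all 10 passed the filter on low counts in RNA and in footprints. K562 is an established line from a chronic myelogenous leukaemia with erythroid features. The cells carried the guide sgDDX3, aimed at the RNA helicase gene DDX3X, or the control guide sgGal4. They were collected at day 0, day 3 and day 14 of the knockdown, and doxycycline at 50 ng/ml, which switches the silencing on, is named for every sample. For each target 1 guide is named, so that effects of the guide itself cannot be told apart from those of its target. The labels do not say whether the day 0 cells had received it, nor whether the 2 replicates of a group were grown separately. The p-values therefore rest on a spread that could be technical rather than between cultures. Each of the 12 groups of guide, day and assay held 2 libraries, either of cytosolic RNA or of ribosome footprints (the stretches of mRNA that ribosomes shield from RNase), 24 libraries in all.

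Heat shock proteins are chaperones that bind unfolded or partly folded proteins and help them fold, assemble or reach the proteasome. Under heat or other protein damage the transcription factor HSF1 forms trimers, enters or stays in the nucleus and binds heat shock elements, repeats of the unit NGAAN in alternating orientation, at the promoters of the inducible genes. HSPA1A and HSPA1B make the inducible HSP70, HSPA8 the HSP70 that is always present (HSC70), and DNAJB1 and HSPH1 are an HSP40 that delivers clients to HSP70 and an HSP110 that exchanges its nucleotide. HSP90AA1 and HSP90AB1 make the 2 cytosolic HSP90 proteins, which mature kinases and receptors and hold HSF1 inactive, and HSPD1 and HSPE1 make the chaperonin HSP60 and its lid HSP10 in the mitochondrial matrix.

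Promoter windows are shown because the heat shock element is the sequence that these genes are known to share. A RefSeq table (GRCh38.p14) gave windows of 250 bases before to 50 after a transcript start for 9 of the 10 genes, 15 windows in all. HSPA8, HSP90AA1, HSP90AB1 and HSPD1 each had a window with 3 units in a row (the 13 letters GAANNTTCNNGAA or TTCNNGAANNTTC, which are each other's reverse complement, so that both strands were read). Such a match was found in 0.49% of the 35116 windows of the table. HSPA1A, HSPA1B and DNAJB1 had only words of 2 units (the 8 letters GAANNTTC or TTCNNGAA, which overlap the longer ones), found in 13.5% of all windows. The windows of HSPH1 and HSPE1 held neither word, which says only that these letters are absent there. The windows of HSPA8, HSP90AA1, HSP90AB1, HSPD1 and DNAJB1 shown here belong to starts that lie inside the annotated span of the gene. For HSP90AA1, HSP90AB1, HSPD1, DNAJB1 and HSPA1B only the stretch with the words is given. Capitals mark words of 3 units where the window has one and words of 2 units otherwise, and each sequence runs 5′ to 3′.
HSPA8, positions -250 to -1 of its window, chr11:123062137-123062386, minus strand: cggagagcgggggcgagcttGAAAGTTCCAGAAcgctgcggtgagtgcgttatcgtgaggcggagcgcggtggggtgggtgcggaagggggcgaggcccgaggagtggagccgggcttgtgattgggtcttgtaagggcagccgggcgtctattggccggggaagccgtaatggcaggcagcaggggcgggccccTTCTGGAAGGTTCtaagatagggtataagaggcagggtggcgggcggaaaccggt
HSP90AB1, positions -200 to -51 of window 3, chr6:44247743-44247892, plus strand: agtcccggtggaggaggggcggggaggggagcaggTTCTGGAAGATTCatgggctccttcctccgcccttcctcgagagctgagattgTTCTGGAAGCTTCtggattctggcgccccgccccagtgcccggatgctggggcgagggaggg
HSP90AA1, positions -110 to -31 of window 2, chr14:102087075-102087154, minus strand: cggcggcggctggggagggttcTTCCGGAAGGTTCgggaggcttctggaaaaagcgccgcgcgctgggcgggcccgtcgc
HSPD1, positions -250 to -221 of window 2, chr2:197500061-197500090, minus strand: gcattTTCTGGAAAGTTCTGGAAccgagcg
HSPA1A, positions -250 to -1 of its start, chr6:31815293-31815542, plus strand: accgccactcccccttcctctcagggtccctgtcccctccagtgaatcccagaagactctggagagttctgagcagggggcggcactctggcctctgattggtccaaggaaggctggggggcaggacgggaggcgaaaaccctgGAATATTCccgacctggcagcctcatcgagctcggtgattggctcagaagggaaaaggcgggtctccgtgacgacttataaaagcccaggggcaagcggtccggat
HSPA1B, positions -130 to -71 of its start, chr6:31827608-31827667, plus strand: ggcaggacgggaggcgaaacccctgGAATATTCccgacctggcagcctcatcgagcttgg
DNAJB1, positions -90 to -31 of window 2, chr19:14518428-14518487, minus strand: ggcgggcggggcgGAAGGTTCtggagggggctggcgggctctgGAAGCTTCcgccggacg

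The HSPA8 and HSP90AB1 windows each held 2 separate words of 3 units, the HSPD1 window an overlapping pair that reads as a longer run, and HSP90AA1 held 1. The HSPA1A and HSPA1B windows were 92% identical over 301 aligned columns and carried the same short word at -106 and -105. HSPA1A and HSPA1B lie 9795 bases apart on chromosome 6 (31815543 to 31817942 and 31827738 to 31830254). HSPD1 and HSPE1 lie head to head on chromosome 2 with 104 bases between their starts (197486584 to 197500274 and 197500379 to 197503449), so that the first HSPD1 window and the HSPE1 window share 204 bases.

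The depth was 1.03e+07 to 4.33e+07 counts per RNA library and 6.22e+06 to 1.52e+07 counts per footprint library. The 10 genes took 0.328% to 0.425% of RNA counts and 0.234% to 0.446% of footprint counts. Levels are CPM (counts per 1e+06, with TMM scaling, the trimmed mean of M values, inside each assay). A limit of 3 counts stands for 0.206 CPM in the median RNA library and 0.317 CPM in the median footprint library, far below every value given for these genes; such limits cover counting error only. DDX3X RNA, the check of the labels, was at 175 and 185 CPM in sgDDX3 libraries and 214 and 203 CPM in sgGal4 libraries at day 0. It was at 38.9 and 33.7 CPM in sgDDX3 libraries and 185 and 174 CPM in sgGal4 libraries at day 3, and at 134 and 101 CPM in sgDDX3 libraries and 201 and 187 CPM in sgGal4 libraries at day 14. The log2 difference was thus larger at day 3 (-2.290 ± 0.11) than at day 14 (-0.72 ± 0.10). Among markers of K562 cells, GATA1 (160 to 191 CPM), TAL1, KLF1 and TFRC were present in every RNA library and HBG1 had at most 5 counts. The erythroid genes HBE1, KLF1 and HBG2 were lower in RNA with sgDDX3 at day 3. Summed over all 8 listed K562 and erythroid markers, however, RNA overlapped between the guides at day 3. This sum was 1210 to 1233 CPM in sgDDX3 libraries and 1184 to 1309 CPM in sgGal4 libraries. At day 14 the same sum was higher with sgDDX3, at 1272 to 1282 CPM against 1177 to 1193 CPM. TFRC RNA was also higher with sgDDX3 at day 14 (0.30 ± 0.07). The 6 markers of other cell types summed to 35.8 to 36.7 CPM in sgDDX3 libraries and 37.7 to 38.5 CPM in sgGal4 libraries at day 3. At day 14 they summed to 30.9 to 31.8 CPM in sgDDX3 libraries and 37.4 to 38.6 CPM in sgGal4 libraries. The order was the other way round at day 0, with 41.4 to 42.4 CPM in sgDDX3 libraries and 34.1 to 39.6 CPM in sgGal4 libraries. Most of this was EPCAM, and CD14 and PDGFRA were at or near 0. The part of such markers in the results below was not tested, and fewer cells of a type cannot be told apart from less RNA per cell.

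Reads of several of these genes may be divided with processed pseudogenes, and how reads with several places of origin were counted is not given in the sources used here. In footprints the pseudogenes named after HSPE1 held 331% to 409% as many counts as HSPE1 itself, those of HSPD1 65.9% to 77.5%, of HSP90AA1 38.2% to 41.9%, of HSP90AB1 28.7% to 32.6%, of HSPA8 24.3% to 31.8% and of DNAJB1 10.4% to 13.7%. In RNA these shares were far lower, 24.7% to 33.9% for HSPE1, 9.9% to 11.3% for HSPD1 and at most 4.37% for the others. HSPH1 has no pseudogene of its name in the tables. Adding each gene's pseudogenes to it before the fit changed no call between the guides at any day. HSPA1A and HSPA1B had nearly equal counts in every library (ratio 0.911 to 1.03 in RNA and 1 to 1.13 in footprints), so the division of reads between these near-identical copies is uncertain and their sum is given too. HSPA1L, the neighbouring copy, held 6.48% as many RNA counts as HSPA1A. DGAT1 overlaps HSF1, WDR20 overlaps HSP90AA1 and TECR overlaps DNAJB1, and small nucleolar RNA genes lie inside HSPA8, so reads in the overlaps are uncertain as well.

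In RNA the 10 genes did not move as a block. At day 3 the HSP70 that is always present (HSPA8) and both HSP90 genes were lower with sgDDX3 than with sgGal4, and the other 7 genes did not pass. At day 14 HSPA8 and HSP90AB1 were still lower, whereas HSPA1A, HSPA1B and HSPH1 were higher. The test was the quasi-likelihood F-test of edgeR on all 12 RNA libraries, with Benjamini-Hochberg adjustment over 18287 genes and a threshold of 0.05. By it 3 of 10 genes passed at day 3, all lower, where 14.1% of all genes passed, and 5 of 10 at day 14, 3 higher and 2 lower, where 14.6% passed. Here and below HSPA1A and HSPA1B enter the counts as 2 genes, although these near-identical copies may share reads. At day 0, 0 of 10 passed (0.00547% of all genes; 1 of 10 at an unadjusted p up to 0.05; 0 by DESeq2). The median log2 difference of the 10 was -0.05 at day 3, with 4 above 0, and 0.04 at day 14, with 7 above 0, against -0.01 for all genes at either day.

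**Figure D1:**
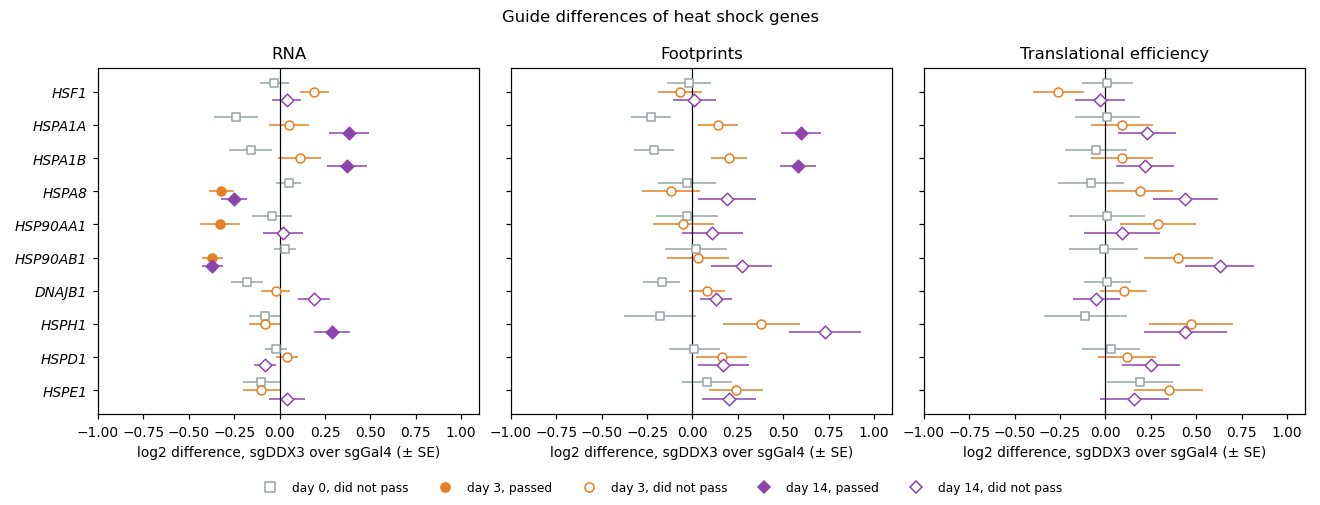
Log2 difference of sgDDX3 over sgGal4 (x axis, ± SE) for each of the 10 genes (1 line per gene) in RNA, footprints and translational efficiency at day 0, day 3 and day 14; filled symbols passed at an adjusted p of 0.05. In RNA the HSPA8 and HSP90AB1 symbols of day 3 and day 14 lie left of 0 (between -0.37 and -0.25), while in footprints the day 14 symbols of HSPA1A and HSPA1B lie at 0.60 and 0.58.

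In footprints 0 of 10 genes passed at day 3 (3.81% of 19780 genes; 0 of 10 at an unadjusted p up to 0.05; 0 by DESeq2) and 2 of 10 at day 14, HSPA1A and HSPA1B, both higher (3.4% of genes). At day 0, 0 of 10 passed (0.0101% of genes; 0 at an unadjusted p up to 0.05; 0 by DESeq2). Translational efficiency, footprints relative to RNA, was tested in a joint fit of the 24 libraries and 14853 genes. There 0 of 10 passed at day 0 (0.00673%; 0 at an unadjusted p up to 0.05; 0 by DESeq2), 0 at day 3 (5.14%; 0 unadjusted; 0 by DESeq2) and 0 at day 14 (1.75%; 2 unadjusted, HSP90AB1 and HSPA8; 1 by DESeq2, HSP90AB1). With all libraries, edgeR's test of a change in the guide difference between day 3 and day 14 gave 0 of 10 in RNA (0.164% of genes; 2 unadjusted; 0 by DESeq2; HSP90AA1 at 0.51 and HSPH1 at 0.49 passed without sgDDX3 day 14 replicate 2) and 0 of 10 in footprints (0.126%; 2 unadjusted; 0 by DESeq2). Set against day 0, a comparison added after the data were seen, the difference had changed in 2 of 10 genes in RNA at day 3 (HSP90AB1 and HSPA8; 3.7% of genes) and in 2 of 10 at day 14 (HSP90AB1 and HSPA1A; 4.46%). In footprints the same comparison gave 0 of 10 at day 3 (0.121%; 2 unadjusted; 0 by DESeq2) and 0 of 10 at day 14 (0.106%; 4 unadjusted; 2 by DESeq2, HSPA1A and HSPA1B).

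HSF1, the master regulator, lies on chromosome 8 at 144291604 to 144314720 (GRCh38). At day 3 its RNA was at 123 and 139 CPM in sgDDX3 libraries and at 114 and 114 CPM in sgGal4 libraries. Both sgDDX3 values were the higher ones, by 0.19 ± 0.08 on the log2 scale (SE; edgeR adjusted p = 0.121), which did not pass; without sgDDX3 replicate 1 the difference was 0.29 and passed (adjusted p = 0.0469). At day 14 the groups overlapped, with 133 and 119 CPM in sgDDX3 libraries and 122 and 124 CPM in sgGal4 libraries (0.04 ± 0.08), and likewise at day 0 (125 and 112 against 121 and 121 CPM). Its footprints overlapped between the guides at every day, with 73.7 and 60.7 against 74.7 and 65.4 CPM at day 3 and 67.7 and 69.4 against 72.8 and 63.4 CPM at day 14, sgDDX3 given before sgGal4. The level of the factor's own mRNA therefore showed no difference past the threshold in either assay.

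HSPA1A and HSPA1B, the inducible HSP70 genes that HSF1 is known to switch on under stress, were higher with sgDDX3 at day 14 in both assays. HSPA1A RNA was at 70.1 and 58 CPM in sgDDX3 libraries and at 52.3 and 47 CPM in sgGal4 libraries. Its footprints were at 155 and 143 CPM in sgDDX3 libraries and at 106 and 90.3 CPM in sgGal4 libraries. The guides did not overlap in either assay. The difference was 0.38 ± 0.11 in RNA (1.3-fold; edgeR adjusted p = 0.0254) and 0.60 ± 0.11 in footprints (1.52-fold; adjusted p = 0.00954). HSPA1B RNA was at 69.4 and 58.4 CPM in sgDDX3 libraries against 51.7 and 48 CPM in sgGal4 libraries (0.37 ± 0.11; adjusted p = 0.0346). Its footprints were at 145 and 140 CPM in sgDDX3 libraries against 101 and 90.1 CPM in sgGal4 libraries (0.58 ± 0.10; adjusted p = 0.00808). With the counts of both genes added together the difference was 0.37 ± 0.11 in RNA (adjusted p = 0.0255) and 0.59 ± 0.10 in footprints (adjusted p = 0.00845).

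At day 3 the guides overlapped for HSPA1A, with 34.9 and 44.4 CPM in sgDDX3 libraries and 34.7 and 41.4 CPM in sgGal4 libraries in RNA. The footprints overlapped too, with 85.6 and 95.1 CPM in sgDDX3 libraries and 76.7 and 87.2 CPM in sgGal4 libraries. At day 0 both sgDDX3 libraries were below both sgGal4 libraries, with 25.8 and 24.3 CPM in RNA with sgDDX3 against 29.7 and 29.7 CPM with sgGal4 (-0.24 ± 0.12; adjusted p = 0.999). In footprints sgDDX3 libraries had 56.2 and 57.1 CPM against 71.8 and 61.6 CPM in sgGal4 libraries (-0.23 ± 0.11; adjusted p = 1). HSPA1B behaved alike at day 3 in RNA, with 35.7 and 48.7 CPM in sgDDX3 libraries and 35.9 and 41.4 CPM in sgGal4 libraries, but its footprints did not overlap there (85.3 and 91.3 CPM with sgDDX3, 76.5 and 77 CPM with sgGal4; 0.20 ± 0.10; adjusted p = 0.318). The order of HSPA1A was the opposite at day 14, and the change of the RNA difference since day 0 was 0.62 ± 0.17 (adjusted p = 0.0329), and 0.84 ± 0.16 in footprints (adjusted p = 0.0776). For HSPA1B the change since day 0 did not pass in RNA (0.53 ± 0.17; adjusted p = 0.0822), and for the sum of both it did (0.57 ± 0.16; adjusted p = 0.0401). Ordered by mean RNA, HSPA1A stood highest in sgDDX3 day 14, then sgGal4 day 14, sgDDX3 day 3, sgGal4 day 3, sgGal4 day 0 and sgDDX3 day 0. In that order only the day 3 groups overlapped as neighbours. Ratios of mean footprint to mean RNA CPM were 2.33 with sgDDX3 and 1.98 with sgGal4 at day 14, a difference in efficiency of 0.23 ± 0.16 that did not pass (adjusted p = 0.642).

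These calls rest on few libraries. The RNA call of HSPA1A at day 14 was lost without sgDDX3 replicate 1 (0.23), without sgGal4 replicate 2 (0.29) and with the libraries of day 14 alone (0.37; adjusted p = 0.0539). Its footprint call was lost without sgDDX3 replicate 1 (0.54), without sgGal4 replicate 2 (0.48) and with day 14 alone (0.58; adjusted p = 0.0585). HSPA1B lost its RNA call when sgGal4 replicate 1 (0.41), sgGal4 replicate 2 (0.31) or sgDDX3 replicate 1 (0.23) was left out and with day 14 alone (0.36; adjusted p = 0.0536). It lost its footprint call without sgDDX3 replicate 1 (0.55) and with day 14 alone (0.56; adjusted p = 0.0562).

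HSPA8, the HSP70 that every cell makes, was lower with sgDDX3 in RNA at both later days. At day 3 it was at 679 and 704 CPM in sgDDX3 libraries and at 812 and 911 CPM in sgGal4 libraries (-0.32 ± 0.07; edgeR adjusted p = 0.00246). At day 14 it was at 700 and 749 CPM in sgDDX3 libraries and at 838 and 878 CPM in sgGal4 libraries (-0.25 ± 0.07; adjusted p = 0.0158). In both cases every sgDDX3 library lay below every sgGal4 library, while at day 0 the sgDDX3 libraries were slightly above (972 and 937 against 933 and 908 CPM; 0.05 ± 0.07). The change of the difference between day 0 and day 3 was -0.37 ± 0.09 (adjusted p = 0.0295), a call kept in 8 of 14 settings. Between day 0 and day 14 the change was -0.30 ± 0.09 and did not pass (edgeR adjusted p = 0.0774). Footprints on HSPA8 overlapped at day 3, at 417 and 585 CPM in sgDDX3 libraries and 499 and 595 CPM in sgGal4 libraries (-0.12 ± 0.16). They also overlapped at day 14, at 779 and 589 CPM in sgDDX3 libraries and 631 and 570 CPM in sgGal4 libraries (0.19 ± 0.16). Neither footprint difference passed (adjusted p = 0.741 and 0.595). The efficiency of HSPA8 was 0.44 ± 0.18 higher at day 14, which did not pass (adjusted p = 0.297). The day 3 RNA call was lost without sgGal4 replicate 2 (-0.23), and that of day 14 without sgDDX3 replicate 1 (-0.20), without sgGal4 replicate 2 (-0.21) and with day 14 alone (-0.25; adjusted p = 0.0919).

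HSP90AB1, the HSP90 that is made without stress, was lower in RNA with sgDDX3 at both later days, with each call kept in all 11 alternative settings. Its RNA was at 1323 and 1381 CPM in sgDDX3 libraries and at 1761 and 1722 CPM in sgGal4 libraries at day 3. At day 14 it was at 1470 and 1434 CPM in sgDDX3 libraries and at 1910 and 1833 CPM in sgGal4 libraries, with no overlap at either day. Levels with sgDDX3 were 77.6% of those with sgGal4 at both days (-0.37 ± 0.06; adjusted p = 1.6e-04 at each day). At day 0 they were 102% (1802 and 1815 against 1797 and 1734 CPM; 0.03 ± 0.06). Its footprints overlapped at day 3, with 803 and 1276 CPM in sgDDX3 libraries and 948 and 1090 CPM in sgGal4 libraries (0.03 ± 0.17; adjusted p = 0.956). At day 14 both sgDDX3 values were the higher ones, with 1643 and 1280 against 1187 and 1243 CPM (0.27 ± 0.17; adjusted p = 0.477), which did not pass.

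The ratio of mean footprint to mean RNA CPM of HSP90AB1 was 0.576 with sgDDX3 and 0.58 with sgGal4 at day 0, 0.769 and 0.585 at day 3, and 1.01 and 0.649 at day 14, sgDDX3 given first. As an efficiency difference this was 0.40 ± 0.19 at day 3 (adjusted p = 0.284) and 0.63 ± 0.19 at day 14 (adjusted p = 0.107). The day 14 difference passed by DESeq2 (0.62; adjusted p = 0.0315), without the low-count filter (0.63; adjusted p = 0.00221) and without sgDDX3 footprint replicate 2 (0.80; adjusted p = 0.0422). The day 3 difference passed without sgDDX3 footprint replicate 1 (0.66; adjusted p = 0.00764), the library with 803 CPM. The pseudogene HSP90AB3P, with 2.82% as many RNA counts and 21.4% as many footprint counts as HSP90AB1, was lower in RNA at day 3 (-0.45 ± 0.08) and at day 14 (-0.33 ± 0.08). At day 14 it did not pass without sgGal4 replicate 2 (-0.31), without sgDDX3 replicate 1 (-0.26) or with day 14 alone (adjusted p = 0.0599).

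HSP90AA1, the stress-inducible HSP90, was lower in RNA at day 3, with 275 and 345 CPM in sgDDX3 libraries and 350 and 431 CPM in sgGal4 libraries (-0.33 ± 0.11; adjusted p = 0.0387). The groups did not overlap, but the higher sgDDX3 library lay close to the lower sgGal4 library. The call was lost with replicate numbers as a block (adjusted p = 0.0539), by DESeq2 (adjusted p = 0.15), and when sgGal4 replicate 2 or sgDDX3 replicate 1 was left out (-0.17 each). At day 14 the guides overlapped (456 and 365 CPM in sgDDX3 libraries, 411 and 398 CPM in sgGal4 libraries), as they did at day 0 (423 and 441 against 459 and 428 CPM). Footprints overlapped at every day, with 392 and 563 against 438 and 552 CPM at day 3 and 709 and 555 against 539 and 628 CPM at day 14, sgDDX3 before sgGal4.

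**Figure D2:**
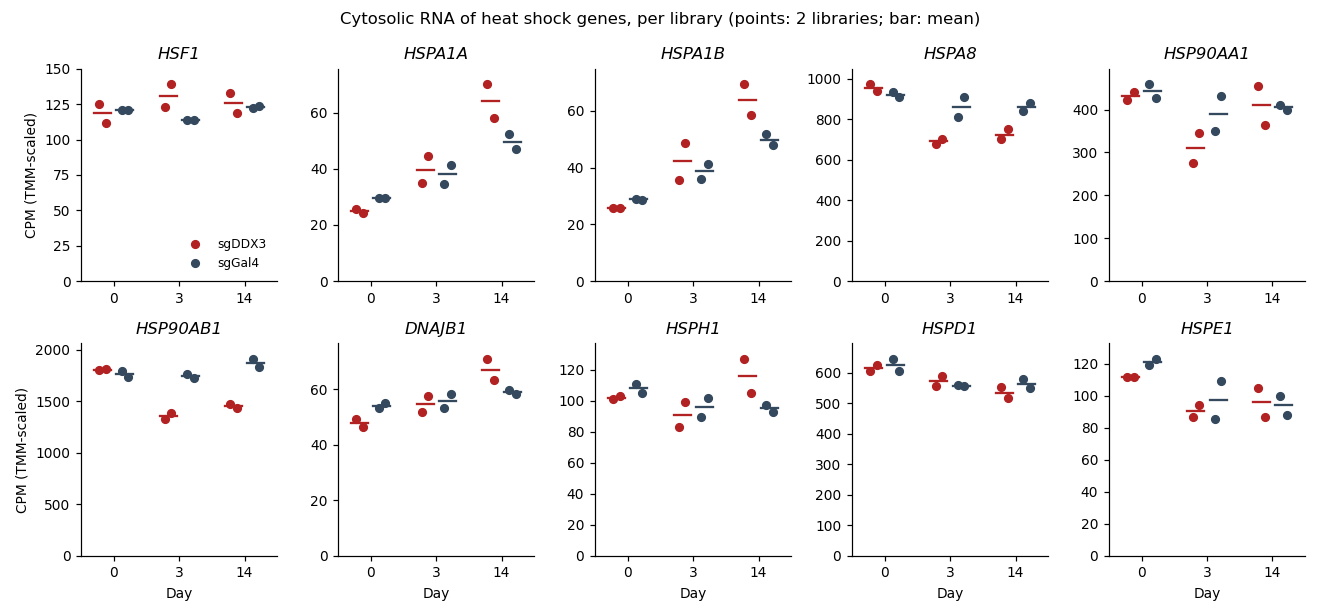
RNA level (y axis, TMM-scaled CPM from 0) of each of the 10 genes in the 2 libraries of each guide (sgDDX3 red and left, sgGal4 dark and right) at day 0, day 3 and day 14, with the mean as a bar. HSP90AB1 stands at 1323 to 1470 CPM in the sgDDX3 libraries of day 3 and day 14, below all sgGal4 libraries, and HSPA1A and HSPA1B climb with the days under both guides.

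DNAJB1, the HSP40 partner of HSP70 and a target of HSF1, did not pass between the guides at any day. Its RNA was at 71 and 63.3 CPM in sgDDX3 libraries and at 59.9 and 58.4 CPM in sgGal4 libraries at day 14, groups that did not overlap (0.19 ± 0.09; adjusted p = 0.161). At day 3 they overlapped (52 and 57.8 against 53.2 and 58.2 CPM), and at day 0 the sgDDX3 libraries were the lower ones (49.2 and 46.3 against 53.2 and 55.1 CPM; -0.18 ± 0.09; adjusted p = 0.999). Footprints on DNAJB1 stayed between 42.8 and 59.8 CPM in all 12 libraries.

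HSPH1, the HSP110 that recharges HSP70, was higher with sgDDX3 at day 14 in RNA, with 127 and 105 CPM in sgDDX3 libraries and 97.4 and 92.9 CPM in sgGal4 libraries (0.29 ± 0.10; adjusted p = 0.0468). This call is weak: it was lost with scaling on protein-coding genes (0.26; adjusted p = 0.0651), with a replicate block (adjusted p = 0.0656), with day 14 alone (adjusted p = 0.109) and when sgGal4 replicate 1 (0.32), sgGal4 replicate 2 (0.25) or sgDDX3 replicate 1 (0.15) was left out. Its footprints had the largest log2 difference of the 10 at day 14, with 171 and 115 CPM in sgDDX3 libraries and 81.9 and 91.1 CPM in sgGal4 libraries (0.73 ± 0.20; 1.66-fold), which did not pass (adjusted p = 0.0673), with the sgDDX3 libraries far apart. By DESeq2 it passed (0.72; adjusted p = 0.0152), as it did without sgDDX3 replicate 2 (0.98; adjusted p = 0.0292). At day 3 the footprints overlapped, with 71 and 114 CPM in sgDDX3 libraries and 62.1 and 81 CPM in sgGal4 libraries (0.38 ± 0.21; adjusted p = 0.349), and the RNA did too (82.9 and 99.1 against 89.8 and 102 CPM).

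HSPD1, the mitochondrial HSP60, did not pass between the guides at any day in either assay. Its RNA was at 557 and 588 CPM in sgDDX3 libraries and 561 and 555 CPM in sgGal4 libraries at day 3 (0.04 ± 0.06). At day 14 it was at 552 and 516 CPM in sgDDX3 libraries and 579 and 550 CPM in sgGal4 libraries (-0.08 ± 0.06), and the groups overlapped at both days. Its footprints were at 419 and 573 against 424 and 466 CPM at day 3 and at 595 and 477 against 447 and 506 CPM at day 14, sgDDX3 first, and overlapped each time. HSPE1, its co-chaperonin, was at 86.6 and 94.1 CPM in sgDDX3 libraries and 85.6 and 109 CPM in sgGal4 libraries at day 3 in RNA (-0.10 ± 0.10). The day 14 values were 105 and 86.8 CPM in sgDDX3 libraries and 100 and 87.7 CPM in sgGal4 libraries (0.04 ± 0.10). None of these differences passed (adjusted p from 0.472 to 0.841), and a p above the threshold does not show that the guides act alike. HSPE1 footprints, at 38.1 to 64.6 CPM in all 12 libraries, are uncertain, since the pseudogenes of its name together held more footprint counts than the gene.

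**Figure D3:**
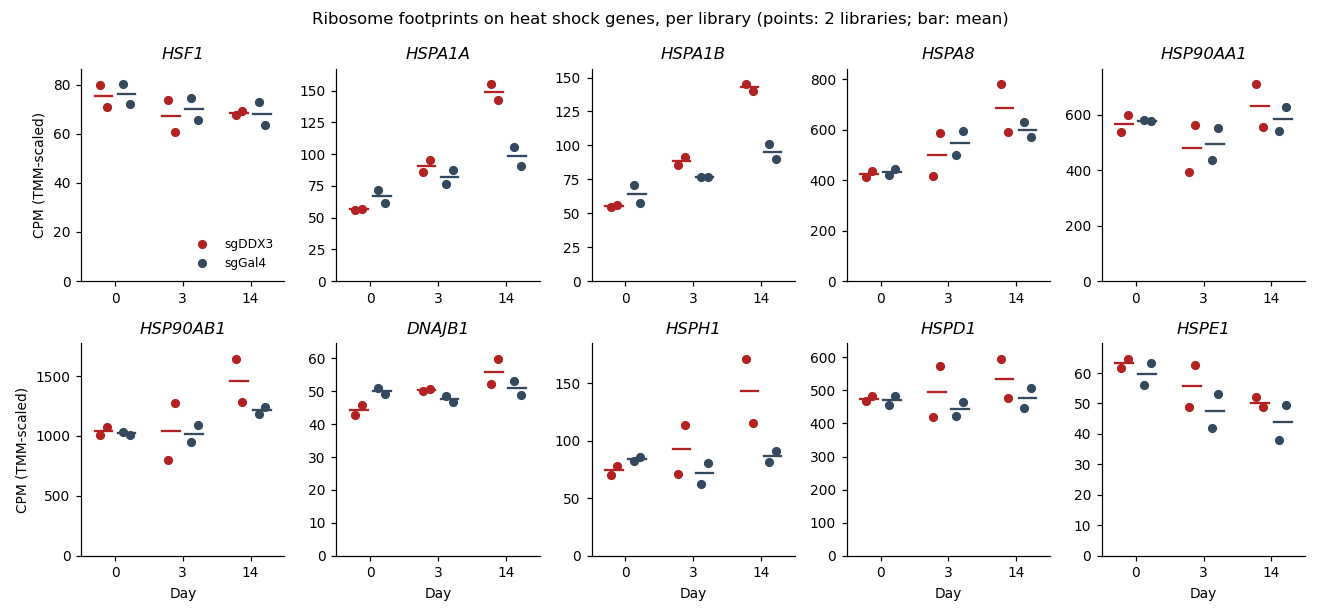
Footprint level (y axis, TMM-scaled CPM from 0) of each of the 10 genes in the 2 libraries of each guide (sgDDX3 red and left, sgGal4 dark and right) at day 0, day 3 and day 14, with the mean as a bar. At day 3 the sgDDX3 libraries lie far apart for most genes (803 and 1276 CPM for HSP90AB1), and at day 14 both sgDDX3 libraries are above both sgGal4 libraries for HSPA1A, HSPA1B, HSP90AB1 and HSPH1.

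Replicate libraries of the later days often differed in the same direction for most of the 10 genes. In the footprints of sgDDX3 day 3, replicate 2 was the higher library for 9 of 10 genes, with a median ratio of 1.33 to replicate 1 (0.823 to 1.6), and HSF1 was the exception. In the RNA of the same group replicate 2 was the higher one for all 10 (median ratio 1.12), and in RNA of sgGal4 day 3 for 8 of 10 (1.13). At sgDDX3 day 14 the order was the other way round, with replicate 1 higher for 9 of 10 genes in RNA and 8 of 10 in footprints (median ratio of replicate 2 to replicate 1, 0.867 and 0.861). At day 0 the median ratios were between 0.983 and 1.05. With 2 libraries a group, a shift of a single library in these genes moves many of the values above at the same time. The cause was not tested.

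Over the days of the experiment the inducible HSP70 genes climbed under both guides. In sgGal4 cells HSPA1A RNA was 1.66-fold higher at day 14 than at day 0 (0.73 ± 0.12; adjusted p = 2.8e-04) and HSPA1B 1.72-fold (0.79 ± 0.12; adjusted p = 1.8e-04), calls kept in all 11 alternative settings each, and HSPE1 RNA fell (-0.37 ± 0.10; adjusted p = 0.0186). These were 3 of 10 genes, where 16.2% of all genes passed. HSPE1 lost its call without sgGal4 day 0 replicate 1 (-0.39), day 0 replicate 2 (-0.34) or day 14 replicate 2 (-0.27). In footprints 2 of 10 passed (2.47% of genes): HSPA1A by 0.56 ± 0.11 (adjusted p = 0.0221) and HSPA1B by 0.57 ± 0.10 (adjusted p = 0.0129). HSPA1A lost its footprint call without sgGal4 day 0 replicate 1 (0.67), day 0 replicate 2 (0.47) or day 14 replicate 1 (0.44), and HSPA1B without day 0 replicate 2 (0.46) or day 14 replicate 1 (0.49). From day 0 to day 3 in sgGal4, 1 of 10 passed in RNA, HSPA1B (0.41 ± 0.12; adjusted p = 0.046; 5.68% of genes), a call lost without any 1 of the 4 libraries (0.31 to 0.51). In footprints 0 of 10 passed (1.26% of genes; 4 at an unadjusted p up to 0.05; 0 by DESeq2).

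In sgDDX3 cells HSPA1A and HSPA1B climbed too, and the test of the difference between the guides' climbs is the change since day 0 given above. HSPA1A RNA was 2.55-fold (1.352 ± 0.12) and its footprints 2.64-fold (1.399 ± 0.11) higher at day 14 than at day 0. HSPA1B RNA was 2.49-fold (1.314 ± 0.12) and its footprints 2.57-fold (1.364 ± 0.11) higher, all kept in all 11 alternative settings each. DNAJB1 RNA rose by 0.49 ± 0.09 (adjusted p = 2.6e-04), while HSPA8 (-0.40 ± 0.07), HSP90AB1 (-0.32 ± 0.06) and HSPD1 (-0.21 ± 0.06) fell. These were 6 of 10 genes in RNA, where 26.2% of all genes passed. In footprints 4 of 10 passed (7.78% of genes), all higher: both HSPA1 genes, HSPH1 (0.95 ± 0.20; adjusted p = 0.0135) and HSPA8 (0.69 ± 0.16; adjusted p = 0.0175). HSPA8 had less RNA and more footprints at day 14 than at day 0 in the same cells. In sgGal4 cells the signs were the same (RNA -0.10 ± 0.07, footprints 0.48 ± 0.16), but neither change passed (edgeR adjusted p = 0.341 and 0.134). The HSPD1 call was lost without sgDDX3 day 0 replicate 1 (-0.23), day 0 replicate 2 (-0.18) or day 14 replicate 2 (-0.16). In sgGal4 cells HSPD1 RNA had the same sign without passing (-0.15 ± 0.06, edgeR adjusted p = 0.12). The change of its guide difference from day 0 to day 14 did not pass either (-0.06 ± 0.09, edgeR adjusted p = 0.821). The footprint calls of HSPA8 and HSPH1 were lost without sgDDX3 day 0 replicate 1 (0.65 and 0.88), day 0 replicate 2 (0.73 and 1.025) or day 14 replicate 1 (0.49 and 0.64). The comparisons of sgDDX3 day 14 share libraries with those of the guides at day 14, so neither stands as independent of the other.

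The rest of the chaperone network was read through 10 lists of partner genes. The counts are to be read against all 18287 genes, of which 14.1% passed in RNA at day 3 (1405 higher, 1169 lower) and 14.6% at day 14 (1543 higher, 1131 lower). Of the 8 subunits of TRiC, the cytosolic chaperonin that folds actin and tubulin, 3 fell and 0 rose in RNA at day 3: CCT5 (-0.37 ± 0.07), CCT8 (-0.36 ± 0.07) and CCT2 (-0.28 ± 0.08), the last of which did not pass without sgGal4 replicate 2 (-0.21) or sgDDX3 replicate 1 (-0.15). The median of the 8 was -0.16, against -0.01 for all genes. At day 14 CCT8 (-0.39 ± 0.07), CCT5 (-0.27 ± 0.07) and CCT4 (-0.22 ± 0.07) were lower, of which CCT8 kept its call in all 10 settings and the others did not. Of 21 HSP90 co-chaperones 4 fell at day 3 and 0 rose, a share near the 14.1% of all genes, among them the phosphatase gene PPP5C (-0.41 ± 0.08), RPAP3 (-0.41 ± 0.09) and PIH1D1 (-0.37 ± 0.09). RPAP3 and PIH1D1 are parts of the R2TP complex that works with HSP90. Leaving out 1 library ended the call of PPP5C in 1 of 4 cases (-0.30), that of RPAP3 in 2 of 4 and that of PIH1D1 in 2 of 4. At day 14 only PIH1D1 (-0.36 ± 0.10) of the 21 passed, where 14.6% of all genes did, and its call was lost without 3 of 4 libraries. Of 6 prefoldin subunits 0 passed at day 3 (median -0.13) and 1 at day 14, PFDN4 (-0.43 ± 0.14), lost without 2 of 4 libraries, by DESeq2 (adjusted p = 0.0837), with a replicate block (adjusted p = 0.0525) and with day 14 alone (adjusted p = 0.132), with values from -0.65 to -0.19.

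BAG1, a nucleotide exchange factor of HSP70 that links it to the proteasome, was higher in RNA with sgDDX3 at both later days. Its RNA was at 106 and 118 CPM in sgDDX3 libraries and at 60.3 and 65.2 CPM in sgGal4 libraries at day 3. The day 14 values were 98.3 and 93.8 CPM in sgDDX3 libraries and 61.8 and 57.1 CPM in sgGal4 libraries. It was 0.84 ± 0.08 higher at day 3 (edgeR adjusted p = 5.2e-07) and 0.70 ± 0.08 higher at day 14 (adjusted p = 8.6e-06), kept in all 10 settings each. Its footprints were at 43 and 35.4 CPM in sgDDX3 libraries and 43.2 and 46.2 CPM in sgGal4 libraries at day 3, and its efficiency was lower at day 3 (-1.033 ± 0.14; adjusted p = 2.1e-05), kept in all 14 settings. The day 14 efficiency was lower too (-0.61 ± 0.14; adjusted p = 0.0192), a call lost without 5 of 8 libraries (values from -0.67 to -0.55 over all settings). Of the other 6 genes of its list HSPBP1 was lower in RNA at day 3 (-0.39 ± 0.12), which did not hold without sgGal4 replicate 2 (-0.23) or sgDDX3 replicate 1 (-0.19). BAG6 was lower at day 14 (-0.24 ± 0.07), lost without 3 of 4 libraries.

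Among 17 other J-domain proteins, which bring clients to HSP70, 3 rose and 2 fell at day 3, where 14.1% of all genes passed. Whether this count differs from the share of all genes was not tested. At day 14, 2 rose and 0 fell, a share near the 14.6% of all genes. DNAJC21, a ribosome biogenesis factor, was higher by 0.60 ± 0.08 and 0.48 ± 0.08, and DNAJC5, which acts at secretory vesicles, by 0.44 ± 0.08 and 0.37 ± 0.08 at day 3 and day 14, all kept in all 10 settings. Like BAG1 they were lower in efficiency at day 3, DNAJC21 at -0.76 ± 0.13 and DNAJC5 at -0.79 ± 0.15. Lower was the usual direction, since of all genes that passed in efficiency at day 3, 659 were lower and 105 higher. At day 14 DNAJC21 was lower too (-0.66 ± 0.13, edgeR adjusted p = 0.00452), kept in 13 of 14 settings. DNAJC5 did not pass then (-0.49 ± 0.14, edgeR adjusted p = 0.0912). Of 21 HSP90 co-chaperones 1 fell and 1 rose in efficiency at day 3, where 5.14% of all genes passed. The ubiquitin ligase gene STUB1 was lower (-0.90 ± 0.20; adjusted p = 0.00498), kept in all 14 settings, and RPAP3 was higher (0.56 ± 0.17; adjusted p = 0.0485), kept in 4 of 14 settings. In the list of BAG1, HSPBP1 was higher in efficiency at day 3 (0.94 ± 0.24; adjusted p = 0.0195), kept in 8 of 14 settings and at 0.40 without sgDDX3 footprint replicate 1. Of 7 other regulators tested, HSF4 was higher and TRIM28 lower in RNA at day 3 (14.1% of all genes passed). At day 14 HSF4 and VCP were higher (14.6%). TRIM28 (-0.28 ± 0.07) kept its call in 8 of 10 settings. VCP was higher at day 14 in RNA (0.34 ± 0.11) and in footprints (0.65 ± 0.13), kept in 6 of 10 settings each. HSF4, another heat shock factor, was at 29.3 and 24.3 CPM in sgDDX3 libraries and at 12.1 and 14.8 CPM in sgGal4 libraries at day 14 (0.96 ± 0.16; adjusted p = 2.5e-04), kept in all 10 settings. Its day 3 difference (0.60 ± 0.16) did not pass when sgGal4 replicate 1 (0.71), sgGal4 replicate 2 (0.56) or sgDDX3 replicate 2 (0.32) was left out. Its footprints were higher at day 14 by 1.083 ± 0.22, lost without any 1 of the 4 libraries (0.92 to 1.245).

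HSPA6, the HSP70 that is nearly silent without strong stress, rose with time in sgGal4 cells. Its RNA was at 2.98 and 2.53 CPM at day 14 and 0.353 and 0.426 CPM at day 0, a log2 change of 2.778 ± 0.40 (adjusted p = 1.0e-04) kept in all 8 settings and resting on 31 and 77 counts at day 14 and 6 and 6 counts at day 0. With sgDDX3 it was at 1.1 and 1.17 CPM at day 14, lower than with sgGal4 (-1.238 ± 0.34; adjusted p = 0.0182), opposite in sign to HSPA1A. This call was lost by DESeq2 (adjusted p = 0.0811) and without any 1 of the 4 libraries (-1.382 to -1.147). The change of the RNA difference since day 0 was -2.264 ± 0.59 (edgeR adjusted p = 0.0296), kept in 6 of 12 settings. That change was larger than the day 14 difference itself, so HSPA6 RNA was not lower with sgDDX3 at day 0. Its efficiency was 1.985 ± 0.58 higher with sgDDX3 at day 14, which did not pass (edgeR adjusted p = 0.0904). HSPA7, its pseudogene, held 30.8% as many RNA counts. Of the 7 other HSP70 and HSP110 genes tested, 0 rose and 2 fell at day 3 (14.1% of all genes passed), HSPA13 (-0.41 ± 0.11) and HSPA14 (-0.26 ± 0.08), each lost without 3 of 4 libraries. Over all settings HSPA13 kept this call in 7 of 10 and HSPA14 in 5 of 10. At day 14 (14.6% of all genes) HSPA13 (-0.48 ± 0.12) and HSPA6 fell and HSPA4 rose (0.22 ± 0.07). The HSPA13 call was lost without 1 of 4 libraries and kept in 9 of 10 settings. The HSPA4 call was lost without 3 of 4 libraries and kept in only 4 of 10 settings. Of 12 other genes known as induced by heat shock 4 fell at day 3 and 3 at day 14, and 0 rose, against 14.1% and 14.6% of all genes that passed. EGR1 was lower at day 3 (-0.71 ± 0.09) and at day 14 (-0.90 ± 0.09), kept in all 10 settings each. ATF3 was lower at day 14 (-0.65 ± 0.12), kept in all 10. Of 15 mitochondrial chaperones and proteases 3 fell and 1 rose at day 3 (14.1% of all genes passed), and 2 fell and 1 rose at day 14 (14.6% of all genes). Whether these counts differ from the shares of all genes was not tested. The matrix protease gene LONP1 was lower at day 3 (-0.38 ± 0.07) and at day 14 (-0.49 ± 0.07), kept in all 10 settings each. In sgGal4 it had climbed to 349 and 363 CPM at day 14, against 221 and 206 CPM at day 0 (0.74 ± 0.07), while in sgDDX3 it was at 247 and 261 CPM at day 14 and 246 and 233 CPM at day 0. Of 4 small heat shock proteins with enough counts, HSPB7 passed at day 3 (1.676 ± 0.52), lost without any 1 of the 4 libraries (1.337 to 1.822).

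**Figure D4:**
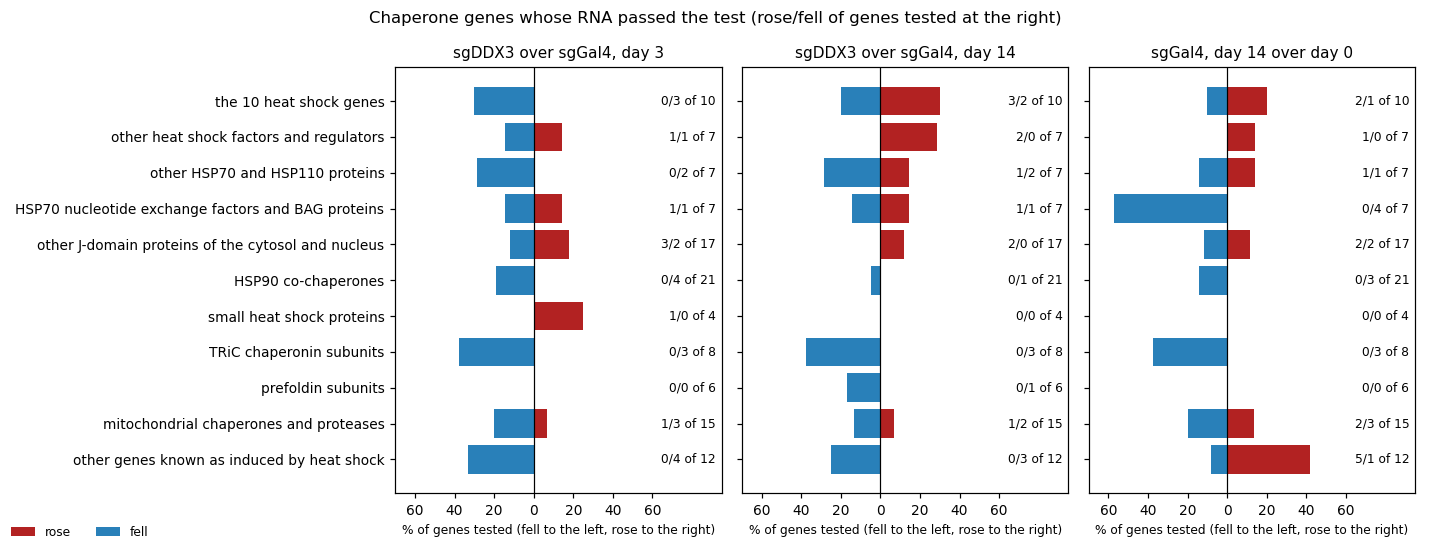
Share of the genes tested in each list (1 line per list) whose RNA rose (red, to the right) or fell (blue, to the left) past an adjusted p of 0.05, for sgDDX3 over sgGal4 at day 3 and day 14 and for day 14 over day 0 in sgGal4; the counts stand at the right as rose/fell of tested. The TRiC subunits show 0 rose and 3 fell of 8 in each panel, and the other genes known as induced by heat shock show 0 rose and 4 fell of 12 at day 3 but 5 rose and 1 fell with time in sgGal4.

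By likeness of RNA over the 12 libraries, a description without a test among 9798 genes with a mean of at least 10 CPM, DNAJB1 was closest to MRTFA (Pearson r = 0.949), SPOUT1 (0.928) and ACIN1 (0.924). HSPA8 was closest to TUBAP2 (0.979), NSUN4 (0.975) and H3C7 (0.975), and HSPD1 to SERBP1 (0.941), with FAH (0.923) also among its closest. The 12 points share 2 guides and 3 days, so genes that move with either will correlate. Heat shock words of 3 units were found in windows of 5 of the 94 partner genes with a window: CHORDC1, DNAJA1, DNAJB6, HSPA6 and SERPINH1. Among all genes with a window, 166 of 27305 had such a word. HSPA6 had its word at -74.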

How the data were processed

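The authors deposited tables of counts per gene for 12 libraries of cytosolic RNA (ribosomal RNA depleted, directional kit) and 12 of ribosome footprints (cycloheximide, RNase I, size-exclusion columns, per the labels' protocols). Per the submitters' processing notes the tools were cutadapt 3.4, Bowtie2 2.4.1, STAR 2.7.5a and DESeq2, with the build GRCh38; for the counting tool, its strand setting, the gene annotation and the treatment of reads with several origins, nothing is stated in the sources used here. Copies of genes on the Y pseudoautosomal regions (45 identifiers) were left out.

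Levels are TMM-scaled CPM. Differences come from the quasi-likelihood F-test of edgeR 4.0.16 (R 4.3.3, limma 3.58.1) on the 12 libraries of an assay, after filterByExpr with a minimum count of 10. Benjamini-Hochberg adjustment ran over all genes tested, with a threshold of 0.05 on the adjusted p; log2 differences are given ± SE. Translational efficiency is the guide-by-assay interaction when all 24 libraries are fitted jointly. The scripts were tested on simulated data. Alternatives were median-of-ratios scaling, scaling on protein-coding genes, DESeq2 1.42.0, no filter, a replicate block, single-day fits, each library left out, and HSPA1A with HSPA1B added together. Added after the data were seen were changes of the guide difference since day 0, day 14 over day 0 in sgDDX3, and pseudogene counts added to their gene. Promoter windows are from a RefSeq table.

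The 10 genes and the partner lists were chosen with earlier results of these data known. From each list up to 3 genes with the smallest p among those that passed a comparison could be named, copies or overlapping genes were named at 1% or more of a gene's counts, and the 3 genes with the highest Pearson correlation were named for DNAJB1, HSPA8 and HSPD1 (log2 CPM with a pseudocount of 0.5). Some results on markers and on likeness are not reported here. Levels were not compared between genes, because coding lengths were not used here.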

Additional observations from a re-analysis of the deposited data

Results flagged for a closer look

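The RNA difference between sgDDX3 and sgGal4 was not the same at a later day as at day 0 in 4 cases, by edgeR's test of the change itself. For HSP90AB1 the change was -0.40 from day 0 to day 3 (adjusted p = 0.00644) and -0.40 from day 0 to day 14 (adjusted p = 0.00539). For HSPA8 it was -0.37 at day 3 (adjusted p = 0.0295), and for HSPA1A it was 0.62 at day 14 (adjusted p = 0.0329). Leaving out 1 library ended the call of HSP90AB1 in 4 cases at day 3 (sgDDX3 day 0 replicate 2, -0.38; sgGal4 day 0 replicate 1, -0.41; sgGal4 day 0 replicate 2, -0.37; sgGal4 day 3 replicate 1, -0.37) and in 1 case at day 14 (sgGal4 day 0 replicate 2, -0.38). The call of HSPA8 was lost in 6 cases (-0.39 to -0.28). That of HSPA1A was lost in 7 of 8 cases (0.48 to 0.69) and with a replicate block (adjusted p = 0.0511). These comparisons were added after the data were seen.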

How the results depend on the processing

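Over 2592 comparisons of single genes with an alternative, 2486 kept the call, 70 lost it, 36 gained it and 0 were reversed. Those kept include results that passed in neither setting, whereas the 70 losses fall only on results that had passed. The sign changed in 174 comparisons that passed in neither. The number of the 10 genes that passed ranged, with each library left out in turn, over 1 to 3 in RNA at day 3 (3 in full), 1 to 5 at day 14 (5 in full), 0 to 2 for day 14 minus day 3, 0 to 1 for sgGal4 day 3 over day 0, 0 to 2 for day 3 minus day 0 and 0 to 6 for day 14 minus day 0. In footprints the ranges were 0 to 3 at day 14 (2 in full), 0 to 2 for sgGal4 day 14 over day 0, 0 to 1 for day 14 minus day 0 and 2 to 4 for sgDDX3 day 14 over day 0; in efficiency they were 0 to 2 at day 3 and 0 to 1 at day 14. With the libraries of day 14 alone 1 passed in RNA (8.26% of all genes) and 0 in footprints (1.16%). For sgGal4 day 3 over day 0 in RNA (1 in full), 0 passed with median-of-ratios scaling, DESeq2 or pseudogenes added, and 3 without the filter (3.51% of all genes). Without the filter 4 passed in RNA for day 14 minus day 0 (2 in full; 2.65% of genes). In footprints 1 passed without it at day 3 (3.43%), 1 for sgGal4 day 3 over day 0 (2.14%), 4 for sgGal4 day 14 over day 0 (2.79%), 1 for day 3 minus day 0 (1.42%) and 3 for day 14 minus day 0 (0.891%), and in efficiency 1 at day 14 (0.877%). By DESeq2 2 passed for day 14 minus day 0 in footprints (81 genes in all) and 1 in efficiency at day 14 (267 genes in all).

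With the replicate block 2 of 10 passed in RNA at day 3, 4 at day 14, 0 for sgGal4 day 3 over day 0 and 1 for day 14 minus day 0. Within an assay and day, same-numbered libraries of the 2 guides deviated together only weakly (correlations -0.05 to 0.10). Whether RNA and footprint libraries of the same number are paired was not tested, and the joint fit for efficiency treats them as unpaired. A left-out library leaves a lone sample that is assumed to vary like the other groups. Except where a value shows it, the cause of these shifts was not tested. With 2 libraries a group, the SE of a guide difference was 0.06 to 0.23 on the log2 scale, which limits what could pass.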
